A study of Mus musculus with 36 samples.

Results

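The Hedgehog pathway was followed through 9 genes in tumors of the 4T1-based and the Py230-based intraductal mouse model and in their control glands. The genes were the inhibitor Hhip, the receptor Ptch1, the transducer Smo, the transcription factors Gli1, Gli2 and Gli3, and the ligands Shh, Ihh and Dhh. The set was chosen by the week 6 difference between the tumors of the models, in which Hhip was among the genes most in favor of 4T1, so that the values of that comparison describe the choice and are given without a test. Of the 9 genes, 7 had expression values among the 21650 genes with such values, and Shh and Ihh had none.

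RNA-seq was performed on 36 libraries in 12 groups of 3. The 4T1 line, a metastatic mammary tumor line that stems from BALB/c mice and carries a firefly luciferase gene, was grown in BALB/c mice. The Py230 line, which was obtained from tumors of C57BL/6 mice with the polyoma middle T oncogene under the MMTV promoter, was grown in C57BL/6 mice. Cells were injected through the teat canal of the third mammary gland of lactating females shortly after weaning, in Matrigel, a basement membrane gel, and control glands of both strains are labelled as Matrigel controls (Matrigel glands). Tissue was collected 1, 3 and 6 weeks after injection, referred to as weeks 1, 3 and 6, and the labels give no age of the mice. The study also kept albino C57BL/6 mice with an NF-κB luciferase reporter, and its methods do not say whether RNA of C57BL/6 mice came from these or from wild-type mice. Each line was grown in 1 strain only, and more Py230 than 4T1 cells were injected, after culture in different media. Cell line, strain, cell number and medium therefore cannot be told apart between the tumors, and the Matrigel glands measured the strain alone. Every library is bulk tissue, in which fewer cells of a type and less RNA per cell cannot be told apart. The labels number the tumors or glands of a group from 1 to 3, and the paper calls the tumor samples independent. Neither says whether the 3 libraries of a group came from separate mice, so p-values measure the spread between libraries.

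Expression is given as the deposited score, in which each library is centered on 0 and scaled to an SD of 1. A gene above the library average has a positive score and one below it a negative score. Across the 13567 genes whose mean normalized count reached 100, 1 score unit went with 2.78 log2 units of that mean (Pearson r = 0.972 across genes, which are not independent replicates). The depth of single libraries is unknown from scores, so precision rests on the replicates. Differences were tested with limma over all 36 libraries, are given in score units with their standard error (SE), and were called at an adjusted p-value under 0.05 (Benjamini-Hochberg over all genes).

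The markers of the luminal epithelium were high in all libraries (mean score of 6 genes from 1.23 to 1.81 in tumors and from 1.28 to 1.77 in glands), as the tissue label has it. Some libraries stood apart from their group. At week 3 replicate 1 of both models was low in adipocyte markers, with a mean score of 0.591 against 1.94 and 2.12 in the other 4T1 tumors and of 0.309 against 1.72 and 1.98 in the other Py230 tumors, and the results of week 3 are given with and without them. Keratinocyte markers were high in 1 4T1 tumor (replicate 3, -0.0987), 1 BALB/c gland (replicate 2, 0.798) and 1 C57BL/6 gland (replicate 3, 0.269) of week 6.

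Hedgehog ligands bind the receptor Ptch1, which otherwise holds the membrane protein Smo inactive, and active Smo in the primary cilium turns the Gli proteins from repressors into activators of transcription. Gli1 and Ptch1 are direct targets of the pathway and are widely read as its output. Hhip is a membrane protein that binds the ligands and is itself a target, so that it can act as a negative feedback. In the mammary gland the pathway is kept low in the early bud, where the repressor form of Gli3 is needed, and in adult tissue it signals mainly between epithelium and stroma.

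At week 6 Hhip separated 4T1 tumors from every other group. Its scores were 1.62, 1.70 and 1.74 in the 3 4T1 tumors and -1.16, -1.10 and -1.26 in the 3 Py230 tumors. The BALB/c Matrigel glands of that week had scores of -0.540, -0.172 and -0.843, and the C57BL/6 Matrigel glands had -0.817, -0.651 and -0.789. All 3 4T1 tumors lay above all other 33 libraries, and the 3 Py230 tumors lay below all 6 glands of week 6. The difference between the models was 2.86 (SE 0.208), in a comparison where 40.8% of all genes passed the threshold, and ranged from 2.82 to 2.90 with 1 library left out at a time. It ranked 2 of 21650 genes, behind Hmga2, a chromatin protein of embryonic tissue, at 3.19, and ahead of Tmprss11e, a membrane protease, at 2.70, and Msln, a surface protein of mesothelium, at 2.56. Against the BALB/c glands the 4T1 tumors were higher by 2.21 (SE 0.208), and against the C57BL/6 glands the Py230 tumors differed by -0.420 (SE 0.208). All these week 6 values come from libraries that chose the gene and carry no test.

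**Figure D1:**
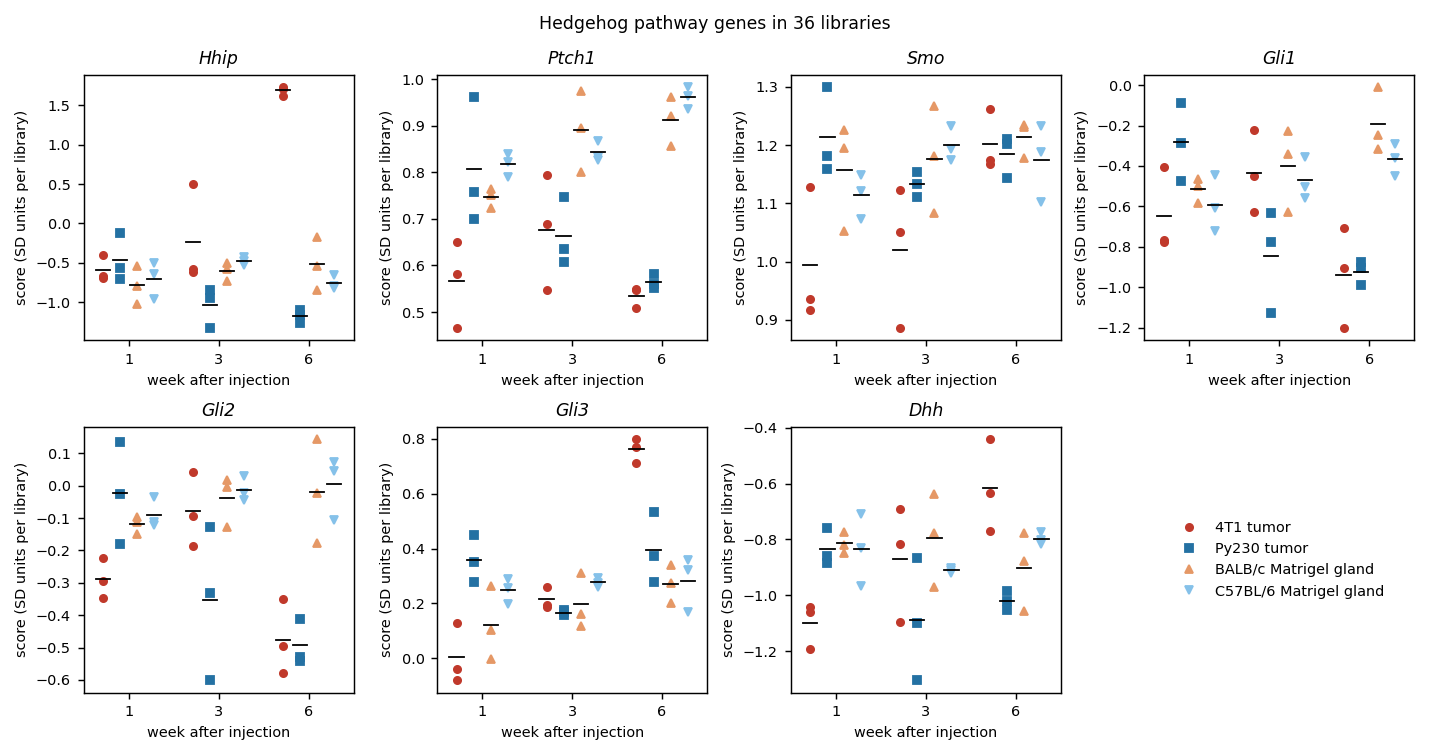
Score of each of the 7 measured Hedgehog genes (vertical axes, in SD units of a library, scaled per gene) in all 36 libraries by week after injection. Each point is 1 library, symbols give the group and bars the mean of 3 libraries. For Hhip the 3 4T1 tumors of week 6 sit between 1.62 and 1.74, above every other library, while for Ptch1 and Gli2 all tumors of week 6 lie below the glands of that week.

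The stretch in front of the Hhip start is shown because Hhip carries the largest difference among the members, beside that of Dhh, the ligand gene that was also higher in 4T1 tumors at week 6. Both are given 5′ to 3′ on the strand of the gene (minus strand, build mm10, RefSeq), at chr8:80058061-80058258 and chr15:98898563-98898790, with CpG dinucleotides in capitals.
Hhip: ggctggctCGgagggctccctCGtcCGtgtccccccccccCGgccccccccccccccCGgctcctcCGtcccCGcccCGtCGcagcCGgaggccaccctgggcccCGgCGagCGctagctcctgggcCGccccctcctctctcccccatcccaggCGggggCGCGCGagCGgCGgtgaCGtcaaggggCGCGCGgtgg
Dhh: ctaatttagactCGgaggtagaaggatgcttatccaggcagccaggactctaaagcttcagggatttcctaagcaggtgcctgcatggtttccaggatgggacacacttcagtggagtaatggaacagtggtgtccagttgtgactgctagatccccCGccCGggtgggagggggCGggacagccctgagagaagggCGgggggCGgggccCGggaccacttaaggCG
The 198 bases of Hhip held 24 CpG and the 228 bases of Dhh held 8. Over the full windows of 300 bases (250 before and 50 after the start), Hhip had 30 CpG, more than 88.3% of 32851 RefSeq windows, and Dhh had 12, more than 60.4%. The others ranged from 17 CpG in Smo to 47 in Ptch1, against a median of 7 over all windows, and 2 of the 9 genes, Shh and Gli1, had no entry. The core CCACCCA of the GLI binding motif, searched on both strands, was in 0 of the 7 windows and in 9.30% of all windows. The letters of this core are a description and name no binding site.

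Before week 6 the scores of Hhip in 4T1 tumors were those of the glands, apart from 1 library. At week 1 they were -0.668, -0.399 and -0.688 in 4T1 tumors and -0.127, -0.562 and -0.702 in Py230 tumors, which overlapped, and the 18 Matrigel glands of all weeks ranged from -1.02 to -0.172 with a median of -0.610. At week 3 they were 0.501, -0.581 and -0.615 in 4T1 tumors and -1.33, -0.950 and -0.842 in Py230 tumors. The groups of week 3 did not overlap, and 4T1 replicate 1 stood far above the other two. At week 3 Hhip was higher in the 4T1 tumors by 0.808 (SE 0.208, limma adjusted p = 0.00445), and at week 1 it was not (-0.122, adjusted p = 0.716). This SE pools the spread within all groups, week 6 included, while the SD at week 3 was 0.634 in 4T1 and 0.255 in Py230 tumors. The call rested on 4T1 week 3 replicate 1, without which the difference was 0.442 (adjusted p = 0.0548), and without replicate 1 of both models it was 0.298 (adjusted p = 0.294).

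The same week 3 difference was compared with that between the glands. Beyond the strain difference of the Matrigel glands, Hhip differed between the tumors at week 3 by 0.936 (SE 0.294, limma adjusted p = 0.0447). It was 1 of 7 members called there, against 9.15% of all genes in either direction and 2.64% upward. This call was lost without any 1 of 9 of the 12 libraries, namely 4T1 replicate 1, Py230 replicates 1 and 2 and each of the 6 glands, with values from 0.570 to 0.987 and adjusted p-values from 0.0568 to 0.164. At week 1 limma called 0 of 7 members (0.305% of all genes), and 4 of 7 passed without adjustment of the p-value. At week 6 the value described for Hhip was 2.63, with 0.511 for Dhh and 0.378 for Gli3.

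The order of the group means of Hhip showed 1 step. The 4T1 tumors of week 6 had a mean of 1.69 ± 0.0586 (SD, n = 3), and the next group, the 4T1 tumors of week 3, had -0.232 ± 0.634. From there each group overlapped with the next, down to the Py230 tumors of week 3 at -1.04 ± 0.255 and of week 6 at -1.17 ± 0.0814. Within 4T1 tumors Hhip was higher at week 6 than at week 3 by 1.92 (SE 0.208), and within Py230 tumors the difference was -0.132 (SE 0.208). Both describe libraries that chose the gene. In Py230 tumors the difference between weeks 3 and 1 was -0.576 (adjusted p = 0.0508), which did not pass.

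Over all 7 measured genes, calls were frequent in the comparisons of week 6 with other tissue, as they were among all genes. Between the tumors of week 1, 4 of 7 were lower and 0 higher in 4T1, where 19.4% of all genes were called and 8.43% were lower. Between those of week 3, 3 of 7 were higher and 0 lower, where 30.3% of all genes were called and 11.9% were higher. In 4T1 tumors against BALB/c glands, 1 of 7 was lower at week 1 (16.6% of all genes called, 6.72% lower) and 1 of 7 at week 3 (3.25% called, 1.15% lower). At week 6, 3 of 6 were lower and 2 higher in 4T1 tumors, against 60.1% of all genes called, 21.5% lower and 38.6% higher. For Py230 tumors against C57BL/6 glands limma called 0 of 7 at week 1 (0.00924% of all genes), with 1 of 7 below 0.05 before adjustment. At week 3, 2 of 7 were lower (19.7% of all genes called, 6.9% lower), and at week 6, 3 of 6 were lower (47.6% called, 18.7% lower). For Py230 tumors of week 6 the total share was near that of all genes. The Py230 tumors of week 1 were close to C57BL/6 glands of week 1 as bulk tissue. Fibroblast marker means were 2.285 to 2.35 in them against 2.19 to 2.31 in these glands, and adipocyte marker means 1.76 to 1.96 against 1.90 to 2.07. Comparisons that use the Py230 tumors of week 1 carry this limit, and the share of tumor cells was not tested. Of the 36 calls, 13 held with each single library of the comparison left out and 23 were lost without at least 1, which are named below, and 12 held when each comparison was fitted on its own libraries alone.

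**Figure D2:**
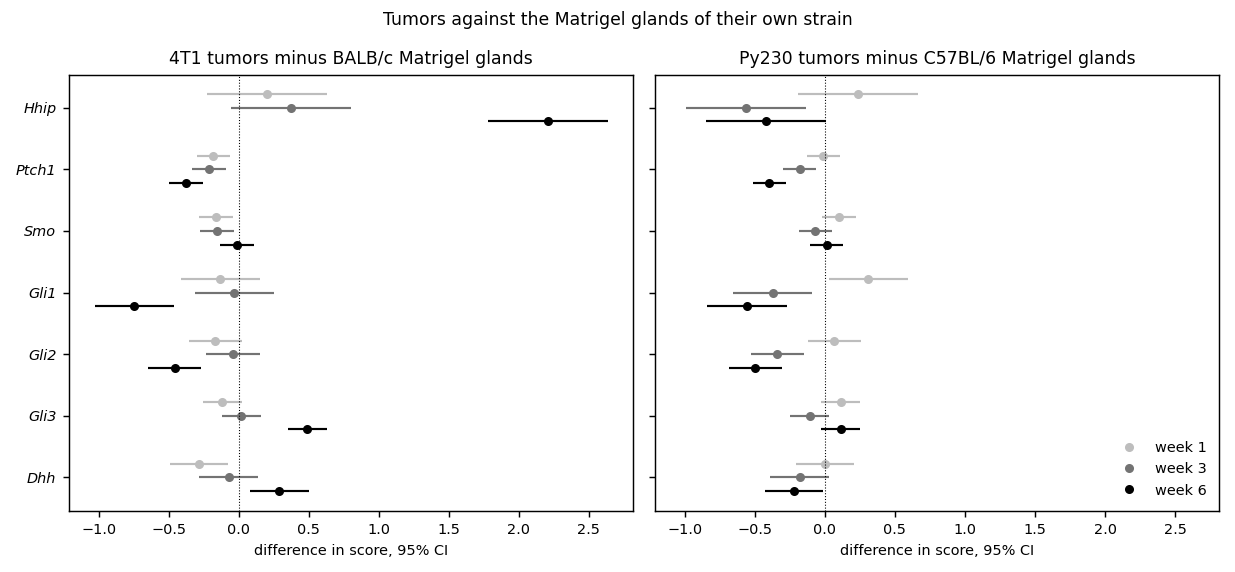
Difference in score between the tumors and the Matrigel glands of the same strain and week (horizontal axis) for the 7 measured genes, with points for the difference and lines for its 95% confidence interval. At week 6 Ptch1, Gli1 and Gli2 lie below 0 in both models, and Hhip, Gli3 and Dhh lie above 0 in 4T1 tumors. The Hhip values of week 6 carry no test, and their lines do not allow for the choice of the gene from these libraries.

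Ptch1, the receptor and a target of the pathway, was lower in the tumors of both models than in their glands at week 6. Its scores were 0.508, 0.550 and 0.546 in 4T1 tumors against 0.856, 0.961 and 0.920 in BALB/c glands. In Py230 tumors they were 0.582, 0.552 and 0.561 against 0.937, 0.963 and 0.984 in C57BL/6 glands. Neither pair of groups overlapped. Ptch1 was lower by a difference of -0.378 (SE 0.0576, limma adjusted p = 4.37e-06) in 4T1 tumors and -0.396 (SE 0.0576, adjusted p = 5.32e-06) in Py230 tumors, and both calls held without any single library. Between the models the difference at week 6 was small, at -0.0303 (95% confidence interval -0.149 to 0.0880), and is described without a test. The libraries did not overlap, but the gap was narrow, from 0.5499 in the highest 4T1 tumor to 0.5524 in the lowest Py230 tumor.

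Smaller deficits of Ptch1 were called earlier. In 4T1 tumors it was lower than in the glands at week 1 (-0.181, limma adjusted p = 0.0339) and at week 3 (-0.213, adjusted p = 0.0431), and in Py230 tumors at week 3 (-0.180, adjusted p = 0.0292) but not at week 1 (-0.0112, adjusted p = 0.976). None of these 3 was firm. The first was lost without 4T1 week 1 replicate 1 or 3 or any of the BALB/c glands of week 1 (-0.192 to -0.131), and the second without 4T1 week 3 replicate 1 or any of the BALB/c glands of week 3 (-0.258 to -0.148). The third was lost without Py230 week 3 replicate 1 or 2 or any of the C57BL/6 glands of week 3 (-0.188 to -0.151). At week 1 the scores were 0.582, 0.650 and 0.465 in 4T1 and 0.962, 0.757 and 0.700 in Py230 tumors, with no overlap, and Ptch1 was lower in 4T1 tumors by a difference of -0.241 (SE 0.0576, adjusted p = 0.00529). That call was lost without 4T1 replicate 3 (-0.190) or Py230 replicate 1 (-0.163). Within 4T1 tumors Ptch1 fell by 0.142 from week 3 to week 6 (adjusted p = 0.0397), a call lost without week 3 replicate 2 or 3 or any tumor of week 6 (-0.150 to -0.0833).

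Gli1, the transcriptional activator whose own gene responds to the pathway, was likewise lower in late tumors. At week 6 its scores were -1.20, -0.707 and -0.905 in 4T1 tumors and -0.875, -0.990 and -0.907 in Py230 tumors. The glands of that week lay at -0.248, -0.00723 and -0.318 in BALB/c mice and at -0.360, -0.448 and -0.293 in C57BL/6 mice. Every tumor of week 6 lay below every gland of week 6. The difference from the glands was -0.747 (SE 0.137, limma adjusted p = 4.98e-05) for 4T1 and -0.557 (SE 0.137, adjusted p = 0.00163) for Py230 tumors, and both calls held without any single library. Between the models the difference at week 6 was -0.0146 (95% confidence interval -0.297 to 0.267), and its sign turned under quantile normalization.

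The group means of Gli1 reached this low level at different weeks in the models, a timing that leaned on replicate 1 of the Py230 tumors of week 3. In Py230 tumors the scores were -0.0866, -0.475 and -0.288 at week 1 and -1.13, -0.776 and -0.634 at week 3, with no overlap. The tumors of week 1 had 0.00924% of all genes called against C57BL/6 glands. Gli1 fell by 0.563 (SE 0.137, limma adjusted p = 0.00585) between these weeks, and the difference without Py230 week 3 replicate 1 was -0.422 (adjusted p = 0.0978). Against the C57BL/6 glands of week 3, Gli1 in Py230 tumors differed by -0.374 (adjusted p = 0.0545), which did not pass. From week 3 to week 6 Gli1 in Py230 tumors differed by -0.0777 (adjusted p = 0.808). In 4T1 tumors the scores were -0.766, -0.405 and -0.776 at week 1 and -0.222, -0.448 and -0.630 at week 3, which overlapped (0.216, adjusted p = 0.438). From week 3 to week 6 Gli1 in 4T1 tumors fell by 0.505 (SE 0.137, adjusted p = 0.00318), and this call held without any single library. At week 3 Gli1 was higher in 4T1 than in Py230 tumors by 0.413 (SE 0.137, adjusted p = 0.0240), with 0.307 (adjusted p = 0.123) without 4T1 replicate 1, 0.271 (adjusted p = 0.209) without Py230 replicate 1, and 0.166 (adjusted p = 0.524) without both.

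Gli2, the main activator among the Gli proteins when the pathway is on, followed Gli1. Its scores at week 6 were -0.496, -0.579 and -0.351 in 4T1 tumors and -0.528, -0.411 and -0.541 in Py230 tumors. The 6 glands of week 6 ranged from -0.176 to 0.144. All tumors of week 6 lay below these glands, by a difference of -0.457 (SE 0.0927, limma adjusted p = 0.000155) for 4T1 and -0.497 (SE 0.0927, adjusted p = 0.000103) for Py230 tumors, and both calls held without any single library. In 4T1 tumors Gli2 fell by 0.397 (SE 0.0927, adjusted p = 0.000817) from week 3, where its scores were -0.185, 0.0425 and -0.0930, a call that also held without any single library.

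In Py230 tumors the lower Gli2 was already seen at week 3, set against week 1 tumors with 0.00924% of all genes called against glands. The scores went from 0.134, -0.180 and -0.0268 at week 1 to -0.602, -0.333 and -0.128 at week 3, where replicate 1 was lowest and the 2 weeks overlapped. Gli2 in Py230 tumors fell by 0.330 between these weeks (limma adjusted p = 0.0143) and lay below the glands of week 3 (-0.341, adjusted p = 0.0114). Without Py230 week 3 replicate 1 these were -0.206 (adjusted p = 0.211) and -0.217 (adjusted p = 0.195), and without Py230 week 1 replicate 1 the first was -0.251 (adjusted p = 0.0860). Between the models Gli2 was lower in 4T1 tumors at week 1 (-0.264, SE 0.0927, adjusted p = 0.0459) and higher in them at week 3 (0.275, SE 0.0927, adjusted p = 0.0256). The first call was lost without replicate 1 or 3 of either model (-0.265 to -0.184), the second without 4T1 week 3 replicate 2 (0.215) or Py230 week 3 replicate 1 (0.151).

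Gli3, which acts chiefly as a repressor in the absence of ligand, moved the other way in 4T1 tumors. Its scores were -0.0807, 0.129 and -0.0390 at week 1, 0.194, 0.262 and 0.188 at week 3, and 0.713, 0.772 and 0.800 at week 6. The weeks did not overlap, and the tumors of week 6 lay above all 18 Matrigel glands, which ranged from -0.00217 to 0.357. Gli3 was higher in 4T1 tumors of week 6 than in BALB/c glands by 0.490 (SE 0.0680, limma adjusted p = 1.12e-06) and rose by 0.547 (SE 0.0680, adjusted p = 2.88e-07) from week 3, and both calls held without any single library. From week 1 to week 3 its difference was 0.211 (adjusted p = 0.131).

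Py230 tumors showed a smaller movement of Gli3. The scores were 0.450, 0.277 and 0.350 at week 1, 0.175, 0.169 and 0.156 at week 3, and 0.374, 0.533 and 0.278 at week 6. The tumors of week 3 lay below those of both other weeks. Gli3 in Py230 tumors fell by 0.192 from week 1 to week 3 (SE 0.0680, limma adjusted p = 0.0461) and rose by 0.228 from week 3 to week 6 (SE 0.0680, adjusted p = 0.0433). The first call was lost without Py230 week 1 replicate 1 or 3 or any tumor of week 3 (-0.197 to -0.147), and the second without Py230 week 3 replicate 2 or 3 or week 6 replicate 1 or 2 (0.159 to 0.238). At week 1 Gli3 was lower in 4T1 than in Py230 tumors by a difference of -0.356 (SE 0.0680, adjusted p = 0.000836), with no overlap and no single library that ended the call. At week 6 it was described as higher in 4T1 tumors by 0.367 (SE 0.0680).

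Smo, the transducer, kept a narrow range. The 18 glands ranged from 1.05 to 1.27, the 9 Py230 tumors from 1.11 to 1.30 and the 9 4T1 tumors from 0.885 to 1.26. At week 1 the scores were 0.916, 1.13 and 0.936 in 4T1 and 1.30, 1.18 and 1.16 in Py230 tumors, with no overlap and a difference of -0.220 (SE 0.0583, limma adjusted p = 0.0102). That call was lost without 4T1 week 1 replicate 1 (-0.182) or 3 (-0.192) or Py230 week 1 replicate 1 (-0.177). In 4T1 tumors Smo rose by 0.181 (SE 0.0583, adjusted p = 0.0107) from week 3, at 0.885, 1.05 and 1.12, to week 6, at 1.17, 1.17 and 1.26. This second call was lost without 4T1 week 3 replicate 1 (0.114) or week 6 replicate 3 (0.151), and under both other normalizations (0.140 with quantile and 0.126 with cyclic loess). Against the glands of its strain Smo was called in neither model at any week. In 4T1 tumors the difference was -0.164 at week 1 (95% confidence interval -0.284 to -0.0447, limma adjusted p = 0.0519). At week 3 it was -0.157 (interval -0.277 to -0.0375, adjusted p = 0.118), so both intervals lay below 0. In Py230 tumors it was 0.0994 at week 1 and -0.0680 at week 3, with intervals that included 0. At week 6 the intervals were -0.133 to 0.106 for 4T1 and -0.109 to 0.131 for Py230 tumors.

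Of the 3 ligands, Dhh alone had scores. Dhh is known as the ligand of Schwann cells in nerve and of Sertoli cells in testis. Its mean normalized count over all libraries, as the authors give it, was 25.7, while Shh had 2.99 and Ihh 1.36, so that a change of Shh or Ihh was not detectable here. In 4T1 tumors the scores of Dhh were -1.06, -1.04 and -1.19 at week 1, -1.10, -0.692 and -0.817 at week 3, and -0.769, -0.440 and -0.633 at week 6. In Py230 tumors they were -0.757, -0.884 and -0.859, then -1.10, -1.31 and -0.868, then -1.02, -1.05 and -0.986. The 4T1 tumors of week 6 lay above the Py230 tumors of week 6 and overlapped with the 4T1 tumors of week 3.

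Dhh was higher in 4T1 tumors than in BALB/c glands at week 6 by 0.289 (SE 0.102, limma adjusted p = 0.0168). The glands of that week had -0.876, -1.06 and -0.776, just below the lowest tumor. The call was lost without 4T1 week 6 replicate 2 (0.202) or BALB/c gland week 6 replicate 2 (0.212). In 4T1 tumors Dhh rose by 0.255 (SE 0.102, adjusted p = 0.0375) from week 3 to week 6, which was lost without 4T1 week 3 replicate 1 (0.141) or week 6 replicate 2 (0.168) or 3 (0.264) and under cyclic loess (0.214, adjusted p = 0.0771). The markers of Schwann cells did not rise with Dhh. All 4 (Sox10, Prx, Cdh19 and Mbp) were lower in 4T1 tumors than in BALB/c glands at week 6, with a mean score from -0.362 to -0.272 in these tumors and from 0.561 to 0.611 in the glands. In that comparison 60.1% of all genes were called and 21.5% were lower. The part of Schwann cells in the values of Dhh was not tested.

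Over time within 4T1 tumors, limma called 0 of 7 members from week 1 to week 3, where 0.628% of all genes were called and 3 members fell below 0.05 before adjustment. From week 3 to week 6 all 6 tested members were called, 3 lower (Ptch1, Gli1, Gli2) and 3 higher (Smo, Gli3, Dhh), against 53% of all genes, 18.8% lower and 34.2% higher. Within Py230 tumors 3 of 7 were called from week 1 to week 3, all lower (Gli1, Gli2, Gli3), against 20% of all genes called and 7.17% lower. From week 3 to week 6 it was 1 of 6, Gli3, which was higher, against 6.03% called and 3.96% higher. The difference between the models in this timing was tested from week 1 to week 3.

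That test asked whether the 4T1 minus Py230 difference changed from week 1 to week 3. It did so for 6 of 7 members, all upward, against 15.3% of all genes called and 4.89% upward. The change was 0.539 for Gli2 (SE 0.131, limma adjusted p = 0.00843) and 0.403 for Gli3 (SE 0.0961, adjusted p = 0.00739), and both held without any single library. For Gli1 it was 0.779 (SE 0.194, adjusted p = 0.00972), with 0.637 (adjusted p = 0.0533) without Py230 week 3 replicate 1. The change for Hhip was 0.930 (adjusted p = 0.0331), for Ptch1 0.254 (adjusted p = 0.0349) and for Dhh 0.487 (adjusted p = 0.0234). Smo did not pass (0.107, adjusted p = 0.403, 95% confidence interval -0.0619 to 0.277).

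Fitted on the libraries of this comparison alone, 0 of the 6 calls held. The last 3 also depended on single libraries. Hhip was lost without 4T1 week 1 replicate 1 or 3, 4T1 week 3 replicate 1, Py230 week 1 replicate 1 or Py230 week 3 replicate 1, with values from 0.564 to 0.888. Ptch1 was lost without 4T1 week 1 replicate 1 or 3, 4T1 week 3 replicate 2 or 3, Py230 week 1 replicate 1 or Py230 week 3 replicate 1 or 2, with values from 0.177 to 0.262. Dhh was lost without 4T1 week 1 replicate 3, 4T1 week 3 replicate 2 or 3, Py230 week 1 replicate 1 or Py230 week 3 replicate 1 or 2, with values from 0.380 to 0.483. Without replicate 1 of both models at week 3, the change was 0.419 (adjusted p = 0.238) for Hhip and 0.532 (adjusted p = 0.0684) for Gli1.

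**Figure D3:**
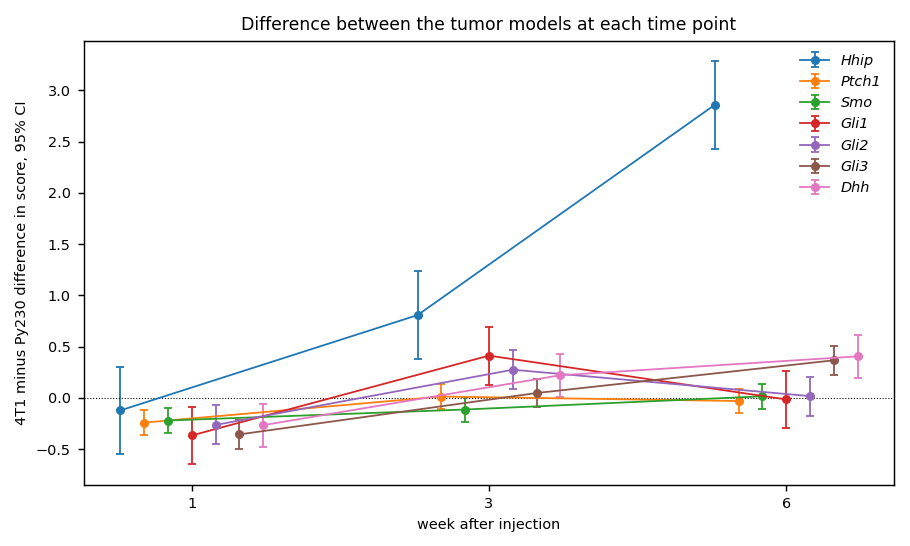
Difference in score between 4T1 and Py230 tumors (vertical axis) by week after injection for the 7 measured genes, with points for the difference of 2 groups of 3 libraries and bars for the 95% confidence interval. Hhip goes from -0.122 at week 1 through 0.808 at week 3 to 2.86 at week 6, while the other genes stay between -0.366 and 0.413. Week 6 is a description without a test. Hhip was chosen by its week 6 difference, so its bar there does not allow for the choice and is no measure of certainty.

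In the Matrigel glands no member was called. Between BALB/c and C57BL/6 glands limma called 0 of 21 pairs of gene and week, where 3.06%, 3.77% and 3.84% of all genes were called at weeks 1, 3 and 6, and 0 of the 21 passed before adjustment. Over time within the glands limma called 0 of 28 pairs, where 0.0139% and 0% of all genes were called in BALB/c and 0.129% and 0.217% in C57BL/6 glands (week 3 against 1 and week 6 against 3), and 2 of the 28 passed before adjustment. For Hhip the gland difference between strains was -0.0848, -0.128 and 0.234 at weeks 1, 3 and 6.

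The wider pathway was covered by 29 further genes in 4 lists, of which all had scores. Among 7 genes that respond to the pathway in other tissues, 4 were higher and 0 lower in 4T1 tumors than in BALB/c glands at week 6, against 60.1% of all genes called and 38.6% higher, and with a median difference of 0.191 against 0.0651 over all genes. These were led by Foxl1 (1.03, limma adjusted p = 1.26e-09) and Foxf1 (0.840, adjusted p = 1.90e-09), forkhead factors of the gut mesenchyme. Both had low mean normalized counts over all libraries (13.9 for Foxl1 and 15.3 for Foxf1). They also lie close together on chromosome 8 (from 121127940 and 121084386), so that they may not count as separate results. In Py230 tumors 5 were higher and 0 lower than in C57BL/6 glands, against 47.6% of all genes called and 28.8% higher, and with a median of 0.240 against 0.0337, led by Ccnd1, a cyclin of the cell cycle (0.546, adjusted p = 0.000115), and Foxf1 (0.343, adjusted p = 0.000796). The called genes of this list were higher in the tumors in which Gli1 and Ptch1 were lower, but in 4T1 tumors their total share was near that of all genes. Ccnd1 and its kin respond to many pathways, and the proliferation markers (Mki67, Top2a, Ccnb1, Birc5) had mean scores from 0.887 to 1.15 in 4T1 and from 0.899 to 1.08 in Py230 tumors of week 6, against -0.291 to 0.283 in the glands of that week. Their part in the result was not tested.

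Co-receptors were split. Of 3 genes, 1 was higher and 1 lower in each model against its glands at week 6, with median differences of -0.195 in 4T1 and -0.166 in Py230 tumors, and with 60.1% and 47.6% of all genes called. In 4T1 tumors Gas1, a co-receptor tethered to the membrane, was lower (-0.850, limma adjusted p = 1.14e-06) and Cdon, another co-receptor, was higher (0.599, adjusted p = 5.86e-05). In Py230 tumors Boc, a relative of Cdon, was higher (0.640, adjusted p = 5.96e-05) and Cdon was lower (-0.357, adjusted p = 0.0101). Described without a test, the difference between the 4T1 and the Py230 tumors of week 6 was 1.02 for Cdon and -0.835 for Boc. At week 3 Boc was the single gene of the list called between the models (-0.600, adjusted p = 0.000278), and at week 1 it was Cdon (-0.517, adjusted p = 0.00253).

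Of 5 genes that process and release the ligands, 2 were higher and 2 lower in 4T1 tumors than in glands at week 6, where 60.1% of all genes were called. Scube3, a secreted protein of a family that helps ligands leave the cell, was lower (-1.02, limma adjusted p = 6.84e-07), and Disp1, which releases lipid-bearing ligand, was higher (0.297, adjusted p = 0.000184). In Py230 tumors 1 was higher, Hhat (0.159, adjusted p = 0.0330), the enzyme that puts palmitate on the ligand, and 1 lower, Scube3 (-0.529, adjusted p = 0.00253). Of 14 genes of the cilium and of signal transduction, 4 were higher and 2 lower in 4T1 and 5 higher and 4 lower in Py230 tumors at week 6, against 60.1% and 47.6% of all genes called. Kif3a, a motor of ciliary transport, was higher in 4T1 tumors (0.266, adjusted p = 6.55e-07), as was Btrc, a subunit of the ligase that marks Gli proteins for processing (0.227, adjusted p = 1.38e-06). In Py230 tumors Csnk1a1, a kinase that acts on Gli proteins, was higher (0.266, adjusted p = 1.27e-06) and Spop, which targets Gli2 and Gli3 for breakdown, was lower (-0.260, adjusted p = 1.84e-06).

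Between the models at week 1, 0 of the 29 further genes were higher and 7 lower in 4T1 tumors, against 19.4% of all genes called and 8.43% lower. Of these, 4 were in the cilium list, led by Btrc (-0.237, limma adjusted p = 9.19e-06) and Evc2, which works with Smo at the base of the cilium (-0.412, adjusted p = 0.00351). At week 3, 1 of 29 was higher and 9 lower, against 30.3% of all genes called and 18.5% lower, so that the total was near the background. Of the lower genes 7 were in the cilium list, led by Csnk1a1 (-0.235, adjusted p = 1.40e-05) and Gsk3b, a kinase of the same step (-0.160, adjusted p = 0.000498). In the change from week 1 to week 3, 4 of 29 were higher and 1 lower, against 15.3% of all genes called and 4.89% higher. The total was near its share and the higher genes were above theirs, led in the cilium list by Evc2 (0.593, adjusted p = 0.00479). Beyond the strain difference of the glands limma called 0 of 29 at week 1, with 6 below 0.05 before adjustment, and 3 of 29 at week 3, all lower, against 9.15% of all genes.

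Markers of several cell types also differed between tumors and glands at week 6. Hhip, Gli1 and Ptch1 were set beside the markers of fibroblasts, in which the pathway is mainly active in adult organs, and of adipocytes. Of 8 fibroblast markers, 3 were lower and 0 higher in 4T1 tumors than in glands at week 6, and 5 were lower and 0 higher in Py230 tumors. In these comparisons, which also hold for the marker counts below, 60.1% of all genes were called for 4T1 tumors (21.5% lower) and 47.6% for Py230 tumors (18.7% lower). Their mean score ranged from 1.57 to 1.80 in 4T1 tumors, from 1.50 to 1.73 in Py230 tumors and from 1.87 to 2.31 in the glands of week 6. All 6 adipocyte markers were lower in both models at week 6, with a mean score from -0.400 to -0.0735 in 4T1 tumors, from -0.217 to 1.00 in Py230 tumors and from 1.62 to 2.24 in the glands of that week. The lower Gli1, Gli2 and Ptch1 of week 6 went with lower fibroblast and adipocyte markers. Endothelial markers were lower as well (3 of 4 in 4T1 and 4 of 4 in Py230 tumors), with a mean score from 0.889 to 0.937 in the tumors and from 1.23 to 1.43 in the glands of week 6. Skeletal muscle markers ranged from -0.584 to 1.60 in these tumors and from 2.04 to 3.06 in these glands, with 4 of 4 lower in 4T1 and 0 of 4 called in Py230 tumors. The part of these cells in the result was not tested. In Py230 tumors from week 1 to week 3, when Gli1 and Gli2 fell, all 8 fibroblast markers were lower, against 20% of all genes called and 7.17% lower.

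**Figure D4:**
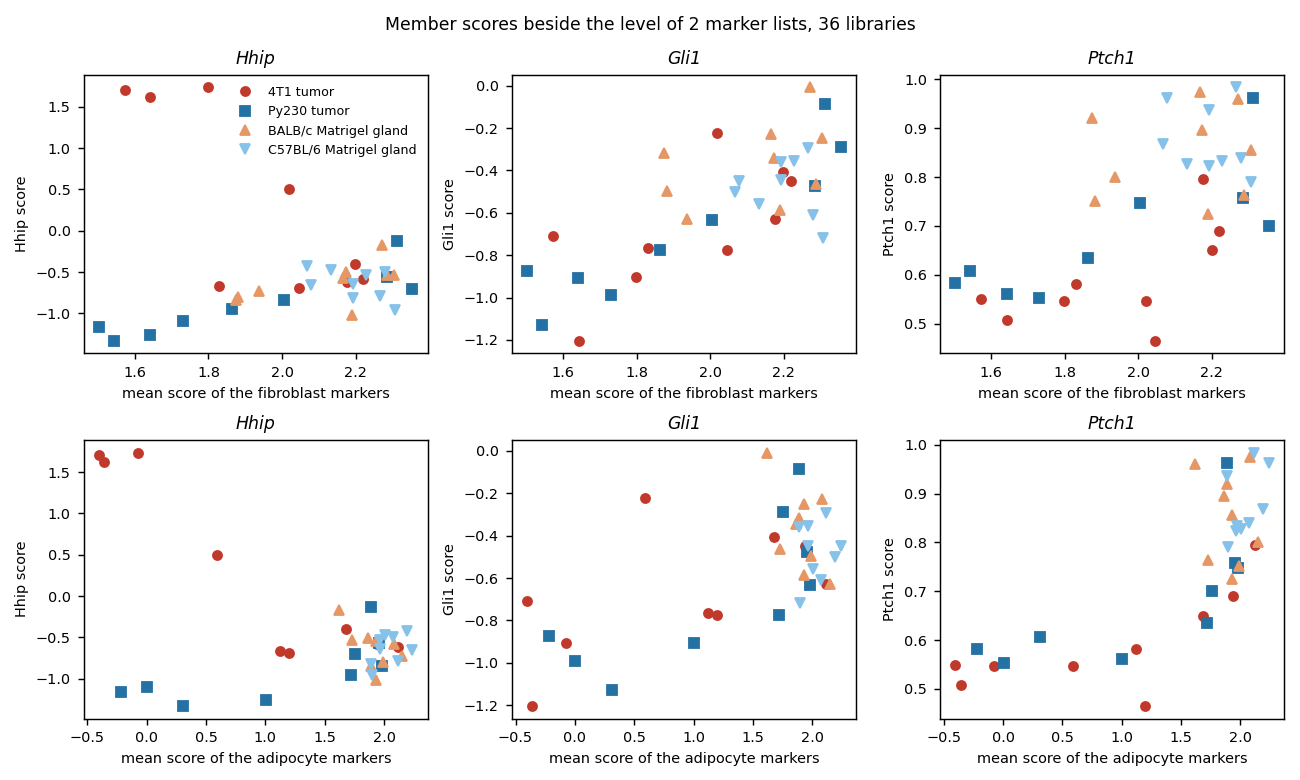
Scores of Hhip, Gli1 and Ptch1 (vertical axes) against the mean score of 8 fibroblast markers (upper row) and 6 adipocyte markers (lower row) in the 36 libraries, each point being 1 library. The 3 4T1 tumors of week 6, at Hhip scores of 1.62 to 1.74, have fibroblast marker means of 1.57 to 1.80, and the Py230 tumors of week 6, at Hhip scores of -1.26 to -1.10, have 1.50 to 1.73.

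The fibroblast markers of the 4T1 and Py230 tumors of week 6 overlapped. Luminal epithelial markers ranged from 1.23 to 1.69 in these 4T1 tumors and from 1.72 to 1.81 in the Py230 tumors. Basal or myoepithelial markers were lower in 4T1 tumors of week 6 (-0.173 to 0.429) than in Py230 tumors (1.07 to 1.28) and glands (1.43 to 1.76), and milk protein genes were lower as well (-0.815 to -0.785 against -0.0160 to 0.225 in Py230 tumors). Their part in the Hhip difference was not tested. Without 4T1 replicate 3, which had high keratinocyte markers, the difference of Hhip at week 6 was 2.83. The week 3 libraries low in adipocyte markers held the highest Hhip score of the 4T1 tumors and the lowest Hhip, Gli1 and Gli2 scores of the Py230 tumors of that week.

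Across the 12 group means the members fell into 2 patterns, described by Pearson r without a test, since the groups share strains and weeks. Gli1 and Gli2 were closest (r = 0.939), followed by Ptch1 with Gli2 (0.887) and Ptch1 with Gli1 (0.824). Hhip went with Gli3 (0.749) and Dhh (0.690), each with its highest mean in the 4T1 tumors of week 6, while its r was -0.232 with Gli1 and -0.328 with Ptch1, the other targets. The 4T1 tumors of week 6 belong to the comparison that chose Hhip. Their Hhip mean stood far from the next (1.69 against -0.232), so that this group weighs heavily in every r of Hhip. Smo was closest to Gli3 (0.567).

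Among the genes whose mean normalized count reached 100, the 5 most like Hhip over the 12 group means were Slc39a13, a zinc transporter (r = 0.982), Ern1, a sensor of protein folding stress (0.973), Rasa2, a Ras regulator (0.969), Map3k5, a stress kinase (0.969), and Clcf1, a cytokine (0.969). All 5 had their highest mean in the 4T1 tumors of week 6, which follows from picking them by likeness to a profile with its 1 step there. Their steps were smaller, as for Slc39a13 with means of 0.643 at week 3 and 0.907 at week 6, against -0.232 and 1.69 for Hhip. The 5 most like Gli1 were Nova1, an RNA-binding protein (0.954), Adh7, an alcohol dehydrogenase (0.950), Gli2 (0.939), Rcan2, a regulator of calcineurin (0.938), and Dnm1, a dynamin (0.937).

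**Figure D5:**
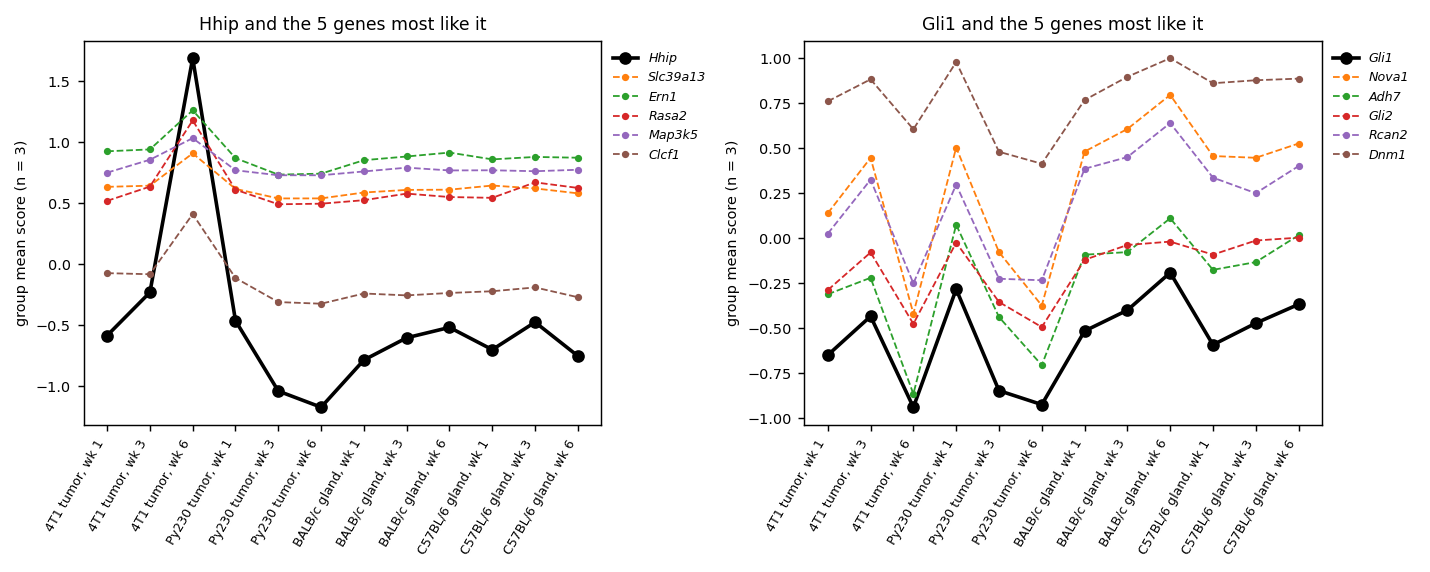
Group mean scores (vertical axes, n = 3 libraries) of Hhip with the 5 genes most like it (left) and of Gli1 with its 5 (right) over the 12 groups. The left panel shows a single peak in 4T1 tumors of week 6, at 1.69 for Hhip, and the right panel shows lows in 4T1 tumors of week 6 and in Py230 tumors of weeks 3 and 6, at -0.938, -0.846 and -0.924 for Gli1.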

How the data were processed

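RNA-seq libraries (stranded TruSeq chemistry, paired-end, HiSeq4000) of 36 samples were mapped by the authors with STAR to mm10, counted per gene with summariseOverlaps and normalized with DESeq2, with versions and annotation not given in the sources used here. The authors deposited a score per gene and library (mean 0, SD 1, no raw reads), a step the methods do not describe, which fixes the spread of each library and can shift single differences. Their mean normalized count, pooled over libraries, was used for low expression only, and the deposited fold changes and p-values were not used. Libraries were grouped by their labels, with 0 columns unmapped. Gene symbols came from the deposited tables, with 5384 genes named from the annotation.

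Scores were fitted in R 4.3.3 with limma 3.58.1 (1 mean per group, all 36 libraries, trended robust empirical Bayes, two-sided, Benjamini-Hochberg over 21650 genes, threshold 0.05) after a test on simulated data. A single exact permutation test of 3 against 3 libraries cannot go below p = 0.1. Some genes of the lists are not reported here. The members and lists were chosen with earlier results of these data known. Named were all 9 members, per list at most 2 genes with the smallest p-value of a comparison, and the 5 genes most like Hhip or Gli1. Alternatives were the libraries of a comparison alone, quantile and cyclic loess normalization, a mean normalized count of at least 10, no trend, a replicate block, and each library left out. The labels do not say that replicate numbers pair libraries. The correlations of the deviations of 54 same-number pairs of a week ran from -0.543 to 0.790, and 17 were above 0.1. Pairs of unlike number were not computed, so this range cannot decide whether numbers pair libraries.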

Additional observations from a re-analysis of the deposited data

Results flagged for a closer look

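The difference between 4T1 and Py230 tumors changed from week 1 to week 3 in 6 members, by a test of the change itself with limma. It changed by 0.930 for Hhip (adjusted p = 0.0331), 0.254 for Ptch1 (adjusted p = 0.0349), 0.779 for Gli1 (adjusted p = 0.00972), 0.539 for Gli2 (adjusted p = 0.00843), 0.403 for Gli3 (adjusted p = 0.00739) and 0.487 for Dhh (adjusted p = 0.0234). Of these calls, those of Gli2 and Gli3 held with each single library left out, and 0 of 6 held with the libraries of the comparison alone. At week 3 the tumor difference of Hhip also exceeded the strain difference of the Matrigel glands, by 0.936 (adjusted p = 0.0447). That call was lost without any 1 of 9 of 12 libraries, with values from 0.570 to 0.987. Without replicate 1 of both models at week 3, which had fewer adipocyte markers than the other replicates, it was 0.426 (adjusted p = 0.405). In the same setting the change was 0.419 for Hhip (adjusted p = 0.238) and 0.532 for Gli1 (adjusted p = 0.0684), which no longer passed, while Ptch1, Gli2, Gli3 and Dhh passed with 0.291, 0.468, 0.418 and 0.597.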

How the results depend on the processing

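Of the 36 called member results, none turned its direction under any alternative run. The same side of the threshold was kept by 12 with only the libraries of a comparison, 34 with quantile and 32 with cyclic loess normalization, 36 with the count minimum, 36 without trend, 33 with the replicate block and 22 without replicate 1 of both models at week 3 (added after seeing the data). With only its own libraries the number of called pairs was 1 instead of 7 between the tumors, 3 instead of 6 over time in 4T1 tumors, 0 instead of 4 over time in Py230 tumors, 0 instead of 1 beyond the strain difference and 0 instead of 6 in the change of the tumor difference. That fit has fewer libraries for the spread. Beyond the strain difference the count was also 0 with quantile normalization and with the replicate block, and the block gave 2 over time in Py230 tumors. The block used replicate numbers, which the labels do not describe as pairs. Without replicate 1 of both models at week 3 the counts were 3 for Py230 tumors against glands, 2 over time in Py230 tumors and 0 beyond the strain difference.

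With 1 library left out at a time, the called pairs ranged from 4 to 9 between the tumors, from 5 to 9 for 4T1 and from 3 to 8 for Py230 tumors against glands, from 3 to 7 over time in 4T1 and from 2 to 5 in Py230 tumors, from 0 to 2 beyond the strain difference and from 2 to 6 in the change of the tumor difference. They stayed at 0 between and within the glands. The median of all genes was shifted by at most 0.0651 in any comparison. The depth of single libraries is unknown from scores, which limits what can be said of genes with low counts such as Dhh, Foxf1 and Foxl1.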
